A study of Mus musculus with 24 samples.

Results

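The comparison described here is the loss of Oct4 from L-EPSCs, mouse extended pluripotent stem cells grown in the culture of Liu and colleagues, measured by poly(A) RNA-seq. Its members are 4 of the 24 libraries of the series, chosen by their labels: 2 libraries of doxycycline-treated (Dox) and 2 of untreated L-EPSCs of the line ZHBTc4, an Oct4 Tet-off knockin. In ZHBTc4 both endogenous copies of Oct4 (gene symbol Pou5f1) are inactivated and the cells live on a transgene that Dox switches off, so treated and untreated cells carry the same alleles and differ in Dox. The line was made as embryonic stem cells (ESCs) and converted without Dox in a medium of knockout serum replacement, LIF, CHIR99021, PD0325901, A-419259, XAV939, JNK inhibitor VIII and SB203580, on feeders or gelatin, and the study describes several passages without feeders before sequencing. The series also holds untreated ESCs of ZHBTc4, and the same 3 groups of 2 libraries for the line 2TS22C (Sox2 Tet-off knockin) and for NgcKO (Nanog Tet-off knockin), which give 18 libraries in 9 groups with the Oct4 line. Each genotype is 1 cell line, and the labels do not give the length of the treatment or say whether replicates were separate cultures, so p-values may measure technical spread only. No wild-type L-EPSCs with Dox were analysed here, so loss of Oct4 and any other effect of Dox cannot be told apart within the line.

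Oct4 is a POU-family transcription factor that binds DNA at an octamer, usually beside Sox2 at a joined Sox-octamer site, and the pair activates genes of the pluripotent state together with Nanog, Esrrb and others. In the blastocyst Oct4 is kept in the inner cell mass and lost from the trophectoderm, the outer layer that forms the placenta. Removing it from mouse ESCs is the textbook way to turn them into trophoblast-like cells, and the treatment here asks the same of L-EPSCs.

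The deposited values are gene counts divided by a size factor for each library, here called normalized counts. The 2 Dox-treated libraries held 10807631 and 11247625 reads on genes and the 2 untreated ones 14014196 and 13737446. A gene was called when limma's Benjamini-Hochberg adjusted p was under 0.05 and its log2 fold change, Dox over untreated on the scale of log2(normalized count + 1), was beyond 1 in either direction. The ± after a log2 fold change is its standard error in a fit of all 18 libraries. With 2 libraries against 2, the smallest p that exact permutation allows for 1 gene is 0.333, so the tests rest on the spread shared across the 18 libraries.

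The label was checked first with the targeted gene. Pou5f1 (chromosome 17, 35642982 to 35647721, + strand, NCBIM37) held 6420.1 and 6316 normalized counts in the untreated and 162 and 184 in the Dox-treated libraries. Reads from the transgene and from the remains of the endogenous locus both count here, and 2.72% of the untreated level was left, a 36.7-fold fall (log2 fold change -5.19 ± 0.049, adjusted p = 7.32e-20). The cells' identity was checked with 5 ESC markers (Sall4, Tdgf1, Zfp42, Esrrb and Nanog), whose normalized counts summed to 25374 and 25450 in the untreated libraries and to 3504 and 3713 after Dox. All 5 were expressed in the untreated cells, and 4 of them fell.

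Over all genes, 2047 of 24007 tested were called higher after Dox (8.53%) and 2590 lower (10.8%), and the median log2 fold change was 0. The largest changes were more often falls, with 388 called genes lower and 244 higher beyond a log2 fold change of 3. Among the 9832 genes whose mean over the 4 libraries reached 100 normalized counts, 913 were called higher and 859 lower. Of the 4637 called genes, 1065 held at most 3 reads in each library of 1 group, and 239 at most 3 in each library of both. For the former a fold is given below only as a bound against 3 reads, and the latter are not described further. In these bulk libraries fewer cells of a type and less RNA per cell cannot be told apart.

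**Figure D1:**
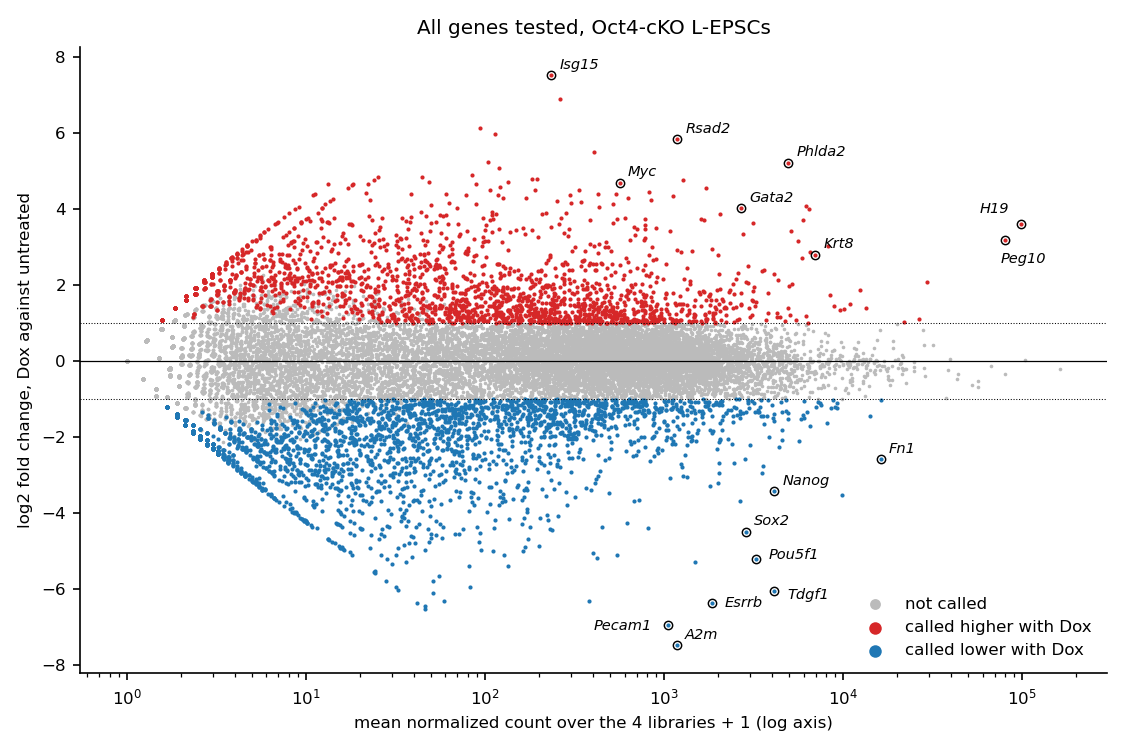
Mean normalized count + 1 over the 4 libraries (x axis, log scale) against the log2 fold change, Dox over untreated (y axis), for the 24007 genes tested, with called genes coloured by direction, dotted lines at the threshold of 1 and some genes of the text labelled. Pou5f1, Tdgf1, Esrrb, Pecam1 and A2m sit far below 0 at high counts, and H19 and Peg10 are the called genes furthest to the right.

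The partners of Oct4 went down with it. Sox2, the factor that shares its sites, held 5483 and 5479.6 normalized counts in the untreated and 260.3 and 229.8 in the Dox-treated libraries, a 22.4-fold fall (log2 fold change -4.48 ± 0.055, adjusted p = 2.03e-18). Nanog, the homeobox factor of the naive epiblast, held 7424 and 7636 before and 691 and 726 after (10.6-fold lower, log2 fold change -3.41 ± 0.043, adjusted p = 2.15e-18). The groups did not overlap for either gene, and 4.47% of Sox2 and 9.41% of Nanog were left after Dox. Of 10 genes known from textbooks as direct targets of the pair, 9 fell and none rose, with a median log2 fold change of -2.75 against 0 for all genes tested. The exception was Utf1, a chromatin-associated pluripotency factor, at 1134 and 1128 and 849.9 and 813 (log2 fold change -0.44 ± 0.061, short of the threshold of 1).

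Sites for Oct4 were looked up in promoters to show what its binding letters look like at these genes. RefSeq windows on GRCm38.p6, running from 250 bases before to 50 after a gene's start, were available for 8 of the 10 targets, and 4 of the 8 held the octamer core ATGCAAA on either strand (Nanog, Sox2, Spp1 and Zfp42). The stretches below are given because these 4 genes all fell, with the matched letters in capitals, written on the strand of the gene. In Nanog the capitals run over a Sox core joined to the octamer core (CATTGT, any base and ATGCAAA, on either strand), here in reverse orientation, a match that includes the octamer match.
Nanog, chr6:122707404-122707437, + strand: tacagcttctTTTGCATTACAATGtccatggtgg
Sox2, chr3:34649886-34649912, + strand: gccccctttcATGCAAAaccctctggc
Spp1, chr5:104435972-104435998, + strand: cacatttgaaATGCAAAtggaaaaagc
Zfp42, chr8:43307178-43307204, - strand: tgaagaggcaTTTGCATaactgagcaa
The joined form was present in 2 of 32851 RefSeq windows, and both belonged to Nanog. The octamer core alone was in 4.63% of all windows. Counted by gene, it was found for 4.42% of the genes tested that had a window. The share was 5.39% of genes called higher (77 of 1430) and 5.45% of genes called lower (94 of 1726). In these windows the core was thus about as common in genes that rose as in genes that fell, and enhancers, where much Oct4 binding lies, were not looked at. A match describes letters and does not show binding. The 10 targets were listed because textbooks name them as direct targets, so the share among them is a property of the list.

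The naive network, the set of factors that holds ESCs in the state of the early epiblast, fell as a whole. Of 20 members tested, 16 fell and none rose, with a median log2 fold change of -2.21. Esrrb, an orphan nuclear receptor, held 3660.4 and 3642 normalized counts untreated and 47.2 and 40.0 after Dox, a 83.8-fold fall (-6.36 ± 0.050, adjusted p = 6.26e-21). Nr0b1 (Dax1), a repressor that partners Oct4 and Esrrb, went from 123 and 106 to 1.15 and 0, at least 33.8-fold lower against the level of 3 reads. Prdm14, which keeps the DNA methylation machinery low, fell from 485 and 586 to 34.5 and 42.2 (log2 fold change -3.77 ± 0.11). Tbx3 went from 3586 and 3578 to 398 and 381 (-3.20 ± 0.042).

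Within the network the falls were graded. Zfp42 (Rex1), a marker of the naive state, kept 24.0% of its untreated level (3344 and 3286 before, 764 and 826 after), Klf4 kept 32.7% and Klf2 28.7%. Tfcp2l1, a factor downstream of LIF, kept 28.3%, against 1.19% for Esrrb and 4.47% for Sox2. The 4 members that were not called were Sall4 (log2 fold change -0.53 ± 0.037), Stat3 (-0.28 ± 0.040), Nr5a2 (-0.24 ± 0.074) and Klf5 (-0.23 ± 0.056). Klf5, which is needed in both the epiblast and the trophectoderm, held 2151 and 2238 untreated and 1898 and 1845 after Dox. In the pluripotency list used in the study, which overlaps this one, 19 of 28 members fell and 1 rose. The member that rose was Myc, the proto-oncogene that drives growth, from 29.3 and 56.6 to 1069.8 and 1098 (25.2-fold, log2 fold change 4.70 ± 0.26, adjusted p = 2.57e-10).

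**Figure D2:**
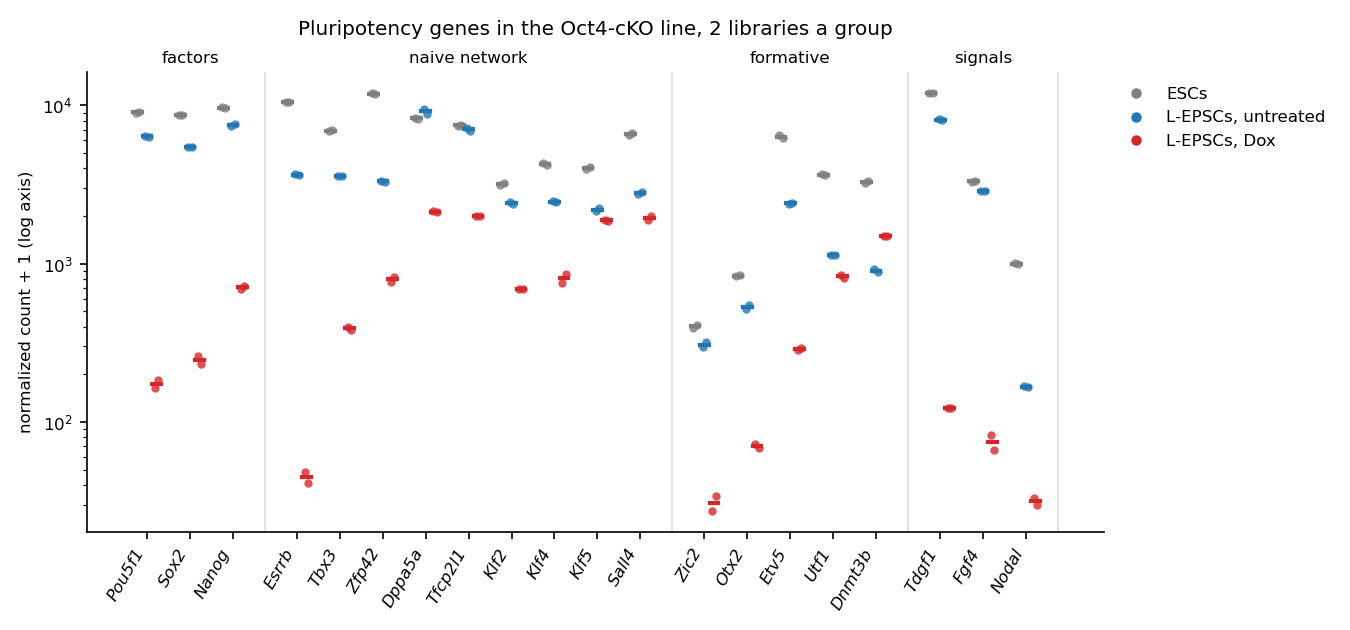
Normalized count + 1 (y axis, log scale) of 20 pluripotency and signalling genes in each library of the Oct4 line, with points for the 2 ESC (grey), 2 untreated L-EPSC (blue) and 2 Dox-treated L-EPSC (red) libraries and a bar at each group mean. For Pou5f1, Sox2, Nanog and Esrrb both Dox-treated libraries lie far below the untreated L-EPSCs, Klf5 and Sall4 lie close to them, and Dnmt3b lies above.

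Genes of the formative and primed epiblast, the stage after the naive one, were more often lower than higher after Dox. Of 18 members, 10 were called lower and 1 higher, with a median of -2.27. Otx2, which drives entry to the formative state, fell from 519 and 545 to 71.4 and 67.7 (-2.92 ± 0.10). Etv5, an ETS factor of the FGF response, fell from 2383 and 2424 to 284 and 293 (-3.05 ± 0.045). Dnmt3b, the de novo methyltransferase of the primed epiblast, held 918 and 879 before and 1501 and 1496 after (0.74 ± 0.048, below the threshold of 1). The single member called higher, Fgf5, had at most 3 reads in every library, so its call carries no level.

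Genes of the trophectoderm rose. Of 16 transcription factors of this lineage, 11 rose and none fell, with a median log2 fold change of 1.51. Gata2 and Gata3, a pair of zinc-finger factors of trophoblast, went from 323 and 300.0 to 5039 and 5136 (16.3-fold, 4.03 ± 0.15, adjusted p = 1.04e-12) and from 192 and 227 to 1073 and 1089 (5.16-fold, 2.37 ± 0.31). Dlx3, a homeobox factor of the placenta, went from 85.2 and 82.6 to 1631 and 1585 (19.2-fold, 4.24 ± 0.12). Elf5, which holds trophoblast stem cells in their fate, rose from 7.99 and 8.98 to 151 and 183 (4.14 ± 0.67), and Tfap2a, an AP-2 factor, from 79.0 and 69.2 to 924 and 1089 (3.74 ± 0.25). Tfap2c, the AP-2 factor already expressed in the untreated cells, rose from 1719.7 and 1699.6 to 4758 and 4615 (1.45 ± 0.041), and Elf3 from 1568 and 1568 to 4699.6 and 4649 (1.57 ± 0.040).

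Cdx2 and Eomes, the factors most often used to name trophoblast stem cells, were not called. Cdx2, the caudal homeobox factor that Oct4 opposes, held 24.0 and 30.5 untreated and 58.7 and 59.9 after Dox. The libraries did not overlap, but the difference did not pass the test (log2 fold change 1.10 ± 0.55, limma adjusted p = 0.127). It passed with only the groups compared in the fit (adjusted p = 0.0172) and in edgeR and DESeq2 on the reads behind the normalized counts (adjusted p = 0.00254 and 0.0187), so the call for Cdx2 depends on the test. Eomes, the T-box factor of the same cells, held 128 and 121 and 249 and 232 (0.94 ± 0.17, adjusted p = 1.89e-04), under the threshold of 1. Hand1, a factor of trophoblast giant cells, held 360.3 and 360.2 and 276 and 245 (adjusted p = 0.283), and Tead4, which starts the lineage in the embryo, 426 and 356 and 322 and 305 (-0.31 ± 0.11). Cdx2 and Elf3 were the 2 of 12 factors with a promoter window that held the octamer core.

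Genes for trophoblast products rose too. Of 18 structural and secreted genes, 11 rose and none fell, with a median of 2.11. With 1 gene at its bound against 3 reads, and without the 1 gene at or under 3 reads in both groups, the median of the rest was 2.79. The 4 keratins of simple epithelium rose together: Krt8 from 1798 and 1689 to 12336 and 12025 (6.99-fold), Krt18 from 1578 and 1549.5 to 11458 and 11447 (7.32-fold), Krt7 from 337 and 332 to 2583 and 2445 (7.51-fold) and Krt19 from 1857 and 1746 to 14832 and 14558 (8.16-fold). Their log2 fold changes lay between 2.80 and 3.03, and the replicates of each differed by far less than the treatment did. Plac1, a placental membrane-associated protein, rose from 138 and 137 to 3375 and 3230.2 (23.9-fold, 4.57 ± 0.22). The X-linked homeobox genes Rhox6 and Rhox9, which are expressed in the placenta, rose from 745 and 746 to 12062 and 12076 and from 695 and 684 to 11636 and 11809.5. Tpbpa, the marker of spongiotrophoblast, stayed near the floor with 1.77 and 1.80 and 4.61 and 8.88, a call by limma that was lost without either untreated replicate or without Dox replicate 2 (adjusted p = 0.0577 to 0.129), in edgeR (0.363), with only the groups compared (0.0772) and with a pseudocount of 0.1 (0.240), and Ctsj, a cathepsin of mature placenta, held at most 3 reads in every library.

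**Figure D3:**
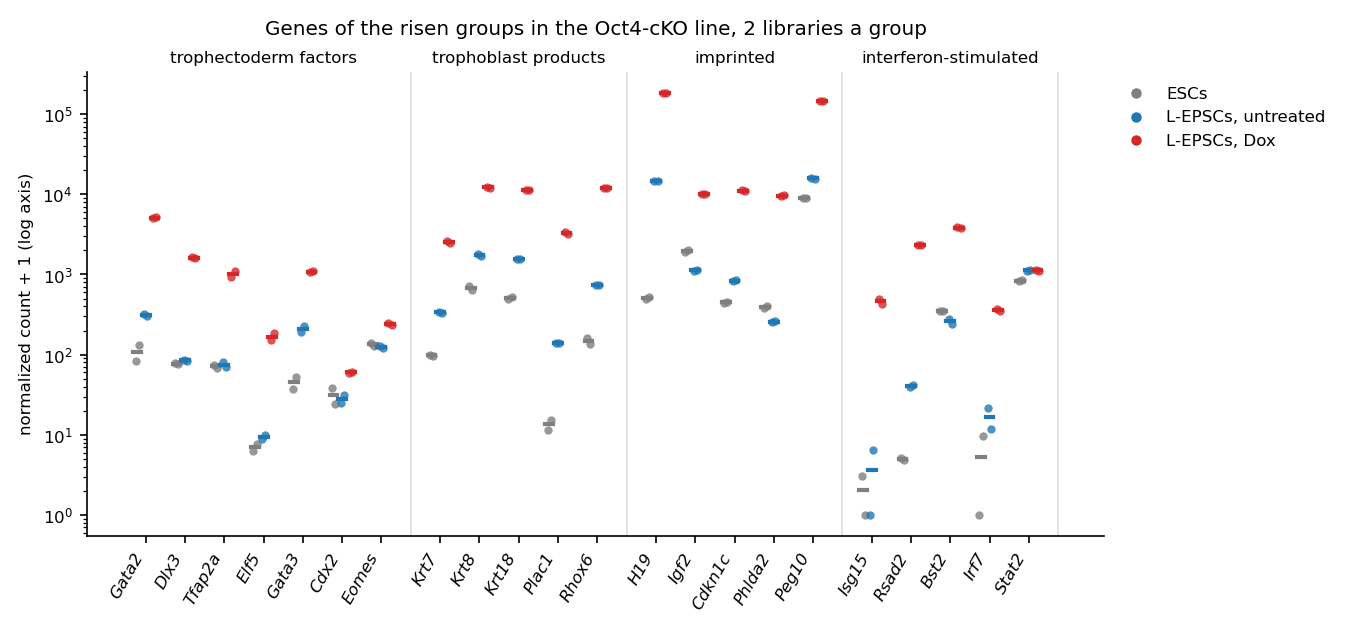
Normalized count + 1 (y axis, log scale) of trophectoderm, trophoblast, imprinted and interferon-stimulated genes in each library of the Oct4 line, with points for ESCs (grey), untreated (blue) and Dox-treated (red) L-EPSCs, 2 libraries a group, and a bar at each group mean. Gata2, Krt8, Plac1 and H19 lie far above the untreated L-EPSCs after Dox, Cdx2 and Eomes show a far smaller gap, and the points of Stat2 lie level.

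The 12 genes that rose most at a mean of 100 counts or more included 8 that belong to no list used here, and 5 of the 8 are not known as interferon-induced. Vgll1, a Tead cofactor of trophoblast, rose from 10.6 and 12.6 to 337 and 362 (4.80 ± 0.53), and Pparg, the nuclear receptor of fat cells and placenta, from 11.5 and 13.5 to 383 and 364 (4.80 ± 0.58). Prlr, the prolactin receptor, went from 5.32 and 14.4 to 251 and 264 (4.71 ± 0.44), Cdc42ep1, a Cdc42 effector, from 14.2 and 18.9 to 816 and 765 (5.51 ± 0.30), and Ldoc1 from 96.7 and 82.6 to 2434 and 2468 (4.76 ± 0.26). Of the 12 genes with the largest rise, 6 (Isg15, Rtp4, Mx2, Rsad2, Gbp3 and Ifih1) are known as interferon-induced.

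Interferon-stimulated genes, which cells use to sense and restrict viruses, rose in the Dox-treated cells. Of 15 members, 14 rose and none fell, with a median log2 fold change of 3.89. With bounds against 3 reads in place of fitted values at the floor it was 3.77. The normalized counts of the whole list summed to 1816 and 1797 in the untreated and to 12031 and 11761 in the Dox-treated libraries. Rsad2 (viperin), an antiviral enzyme, rose from 38.2 and 41.3 to 2350.4 and 2298 (58.5-fold, 5.84 ± 0.49, adjusted p = 3.58e-08), and Bst2 (tetherin), which holds budding virus at the membrane, from 279.5 and 243 to 3874 and 3808 (14.7-fold, 3.88 ± 0.081). Isg15, a ubiquitin-like protein, went from 0 and 5.39 to 499 and 429.6 (7.52 ± 0.88), and 2 interferon-induced genes outside the list rose as well, Rtp4 from 0.887 and 8.98 to 501 and 528 (6.89 ± 0.81) and Mx2, an antiviral GTPase, from 3.55 and 1.80 to 209.6 and 238 (5.97 ± 0.75).

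The sensors and the signalling parts of the response differed among themselves. The cytoplasmic RNA sensors Ddx58 (RIG-I) and Ifih1 (MDA5) rose from 28.4 and 42.2 to 628 and 662 (18.3-fold) and from 2.66 and 11.7 to 228 and 229. Usp18, which turns the response off, went from 0.887 and 2.69 to 196 and 172, at least 68.7-fold higher against 3 reads. Irf7, a second-wave activator, rose from 20.4 and 10.8 to 375 and 349.7 (4.52 ± 0.93). Stat2, a signal transducer of the pathway, was the member that did not rise, with 1119 and 1123 untreated and 1129.7 and 1114 after Dox (log2 fold change 0.0015 ± 0.058).

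Promoters of 8 of the 13 interferon-stimulated genes with a RefSeq window held the core of the interferon-stimulated response element, GAAA, any 2 bases and again GAAA, on either strand with overlapping matches allowed, where Stat2 with Irf9, or another Irf factor, can bind. The core was in 3.44% of all 32851 windows. Counted by gene, it was found for 3.56% of the genes tested that had a window. The share was 6.01% of genes called higher (86 of 1430) and 3.42% of genes called lower (59 of 1726). The list was drawn up from genes known to respond to interferon, which such elements drive, so the share in the list is a property of the list. The sites of 3 genes that rose and of Stat2, which did not, show the letters in capitals on GRCm38.p6, each on the strand of its gene.
Isg15, chr4:156200865-156200894: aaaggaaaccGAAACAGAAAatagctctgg
Rsad2, chr12:26456553-26456582: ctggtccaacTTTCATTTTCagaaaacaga
Bst2, chr8:71537577-71537606: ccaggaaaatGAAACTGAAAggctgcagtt
Stat2, chr10:128270266-128270295: cgcaccctggTTTCAGTTTCctttccctag
The Stat2 window held the core, and Stat2 was not called.

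Imprinted genes, which are expressed from 1 parental copy and many of which act in the placenta, held the largest gains in counts. Of 19 members, 9 rose and 3 fell, with a median of 1.00. H19, a long non-coding RNA, rose from 14778 and 14798 to 182665 and 181419 (12.3-fold, 3.62 ± 0.10), and Peg10, a retrotransposon-derived gene needed for placenta formation, from 16075 and 15708 to 145533 and 143558 (9.10-fold, 3.19 ± 0.025). Igf2, the fetal growth factor beside H19, rose from 1107 and 1149.8 to 10026 and 10103 (8.92-fold). The summed counts of the list went from 42721 and 42326 to 371696 and 368711.

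Several of the imprinted genes that rose share a place on distal chromosome 7. Phlda2, which restrains placental growth, rose from 251 and 261 to 9544 and 9704 (37.6-fold, 5.23 ± 0.068, adjusted p = 3.64e-18). Its neighbours Slc22a18 and Cdkn1c, the latter an inhibitor of cyclin-dependent kinases, rose from 42.6 and 33.2 to 486 and 463 and from 838 and 842 to 11148 and 10926. Ascl2, a trophoblast factor, rose from 143 and 121 to 531 and 498. Phlda2, Slc22a18, Cdkn1c, Ascl2, Igf2 and H19 lie between positions 149761434 and 150688446 of chromosome 7 (NCBIM37). These 6 genes were picked from imprinted genes that rose, so their shared direction was set by the choice. The other genes between these positions were not counted, so whether the region rose as a whole was not tested. The paternally expressed Peg3 rose from 1191 and 1083 to 5857 and 6012. Meg3, the non-coding RNA of another imprinted domain, fell from 1520.1 and 1612 to 512 and 472 (-1.67 ± 0.049), and Mest and Igf2r fell by less (-1.08 ± 0.13 and -1.04 ± 0.038), Igf2r to just under the threshold without Dox replicate 1 (-0.99). H19 (149761434 to 149764048) and Igf2 (149836673 to 149852721) both lie on the - strand and do not overlap. The counting's use of strand is not given. Where strand was not used, reads of a gene and of another overlapping it on the opposite strand cannot be told apart.

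Components of Nodal signalling, which works through a ligand, a co-receptor and Smad factors, fell. Of 17 members, 10 fell and none rose, with a median of -2.02. The co-receptor Tdgf1 (Cripto) held 8209 and 8041 untreated and 122 and 122 after Dox, a 66.5-fold fall (-6.04 ± 0.030, adjusted p = 1.63e-23). The ligands Nodal and Gdf3 fell from 167 and 164 to 32.2 and 28.9 and from 199.7 and 155 to 6.91 and 6.66. Foxh1, the DNA-binding partner of Smad2 and Smad3, fell from 403 and 370.1 to 11.5 and 13.3 (-4.85 ± 0.11), and the inhibitor Lefty2, itself a target of the pathway, from 39.0 and 20.7 to 0 and 0, at least 8.80-fold. Receptors and Smads moved less, with -0.56 ± 0.057 for Acvr1b, 0.16 ± 0.076 for Smad2 and -0.25 ± 0.095 for Smad3, none of them called.

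In the FGF pathway the ligand of the epiblast and the receptor of the trophectoderm moved in opposite directions. Fgf4, made by the inner cell mass, fell from 2881 and 2879.9 to 81.8 and 65.5 (39.1-fold, -5.28 ± 0.072), and Fgfr2, the receptor through which trophoblast responds, rose from 268 and 261 to 564 and 563 (1.09 ± 0.10). Fgfr3 and Fgfr4 fell (-2.76 ± 0.24 and -2.08 ± 0.23), while Fgfr1 at 1832 and 1833 and 999.6 and 949 was short of the threshold (-0.91 ± 0.041). Over the 13 ligands and receptors, 8 were called lower and 2 higher, 1 of the 2 being Fgf5 with its few reads. Genes that report ERK activity were lower too, 8 of 15 with none higher and a median of -1.27, among them the feedback inhibitors Spry2 (404 and 379 to 69.1 and 66.6) and Spred1 (261 and 263 to 16.1 and 25.5). The medium holds a MEK inhibitor in both groups. The immediate-early genes Egr1 (0.23 ± 0.22) and Fos (0.35 ± 0.14) were not called.

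Targets of Wnt signalling fell in 8 of 13 cases and rose in 1, with a median of -1.77. Ccnd1 (cyclin D1) fell from 305 and 322 to 5.76 and 13.3 (32.9-fold, -5.00 ± 0.24), Tcf7 from 744 and 740.2 to 79.5 and 78.8, and Axin2, the feedback inhibitor most used as a readout, from 68.3 and 64.7 to 36.9 and 27.8 (-1.03 ± 0.16), which came under the threshold without Dox replicate 2 (-0.83) or untreated replicate 1 (-0.99). The gene that rose was Dkk1, a secreted Wnt inhibitor, from 7.99 and 7.19 to 42.6 and 47.7 (2.43 ± 0.71), a call that was lost without Dox replicate 2 or untreated replicate 2 (adjusted p = 0.0610 and 0.0604) and with a pseudocount of 0.1 (0.154). In the BMP pathway 3 of 16 members rose and 3 fell, beside 8.53% higher and 10.8% lower of all genes tested. The 3 that rose, Id1, Id2 and Id3, are its direct targets (1.10 ± 0.16, 1.44 ± 0.15 and 2.29 ± 0.21), and the inhibitory Smad6 and Bambi fell (-2.31 ± 0.19 and -1.40 ± 0.18). The ligand Bmp4 held 129.6 and 154 and 147 and 129 (log2 fold change -0.034 ± 0.14).

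The LIF pathway split in a similar way. The receptor Lifr fell from 865 and 795 to 233 and 262 (-1.74 ± 0.086) and the STAT3 target Socs3 from 2251 and 2120.0 to 1059 and 1117 (-1.01 ± 0.052, and -0.97 and -0.96 without Dox replicate 1 or untreated replicate 1, just under the threshold), while the ligand Lif rose from 99.4 and 115 to 433 and 398 (3.88-fold, 1.95 ± 0.22), and in all 4 of 12 members fell and 2 rose. Among Yap and Tead genes 3 of 13 fell and 1 rose. The counts of the LIF list and of this list stand beside 10.8% lower and 8.53% higher of all genes tested. Tead3 rose from 248 and 311 to 1401 and 1409.7 (2.33 ± 0.11), Tead1 fell from 1704 and 1767 to 666 and 587 (-1.47 ± 0.052), and the Yap target Ccn2 fell from 834 and 886 to 40.3 and 42.2 (20.8-fold). Of 16 genes of the retinoic acid pathway 4 fell and 2 rose, beside the same shares of all genes. The receptor Rxra was among the 2 that rose (1.59 ± 0.086), and the receptor Rarg fell (-1.73 ± 0.075).

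**Figure D4:**
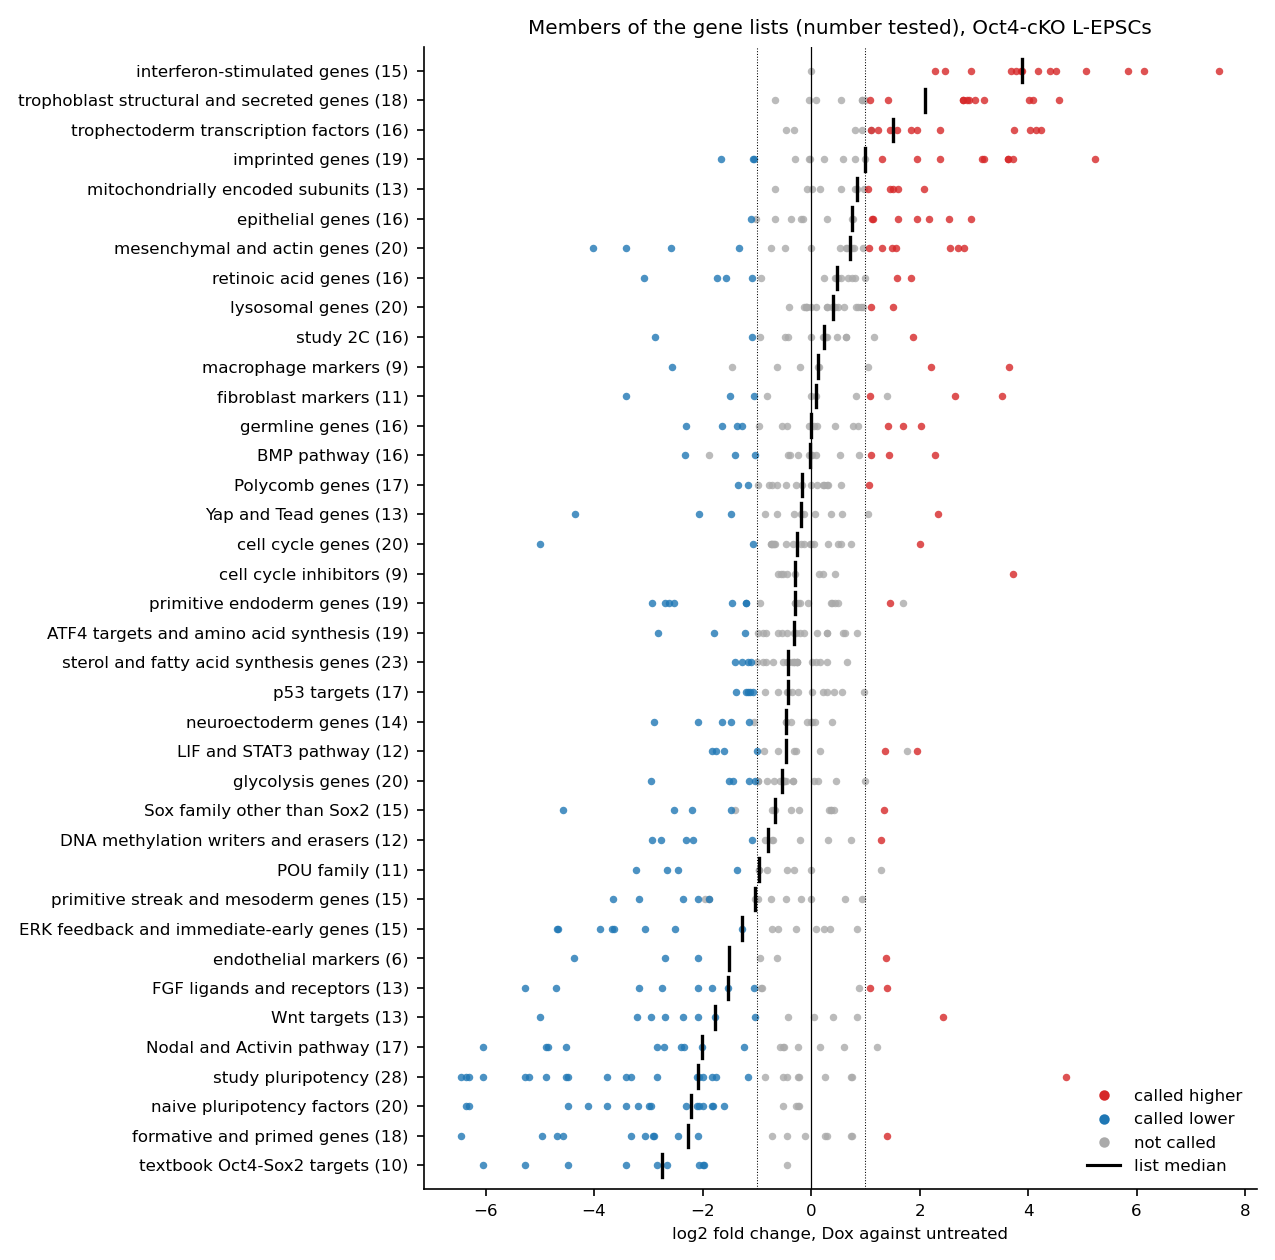
Log2 fold change, Dox over untreated (x axis), of each tested member of the 38 gene lists (rows, number tested in brackets), coloured as called higher (red), called lower (blue) or not called (grey), with a bar at the list median and dotted lines at the threshold of 1. The interferon-stimulated list has the highest median and the textbook Oct4-Sox2 targets the lowest, and the line at 0 is also the median of all genes tested.

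Genes of the other embryonic lineages did not rise as groups. In primitive endoderm, the second lineage to leave the inner cell mass, 7 of 19 members fell and 1 rose. Gata4 fell from 56.8 and 67.4 to 4.61 and 11.1 (-2.93 ± 0.40), Gata6 was at 534 and 481 and 434 and 389.6 (-0.30 ± 0.16, not called), and the member that rose was the receptor Pdgfra, from 83.4 and 72.8 to 203 and 229.8 (1.46 ± 0.22). Of 15 genes of the primitive streak and mesoderm, 5 fell and none rose, and T (brachyury), the streak's defining factor, held 3.55 and 2.69 and 0 and 3.33. Of these 15, 4 held at most 3 reads in every library of both groups, and 5 in each library of 1 group. Of 14 neuroectoderm genes, 5 fell and none rose, with Nes (nestin) from 658 and 631 to 159 and 145 and Pax6 at 18.6 and 28.7 and 17.3 and 27.8 (-0.076 ± 0.35). At most 3 reads in every library of both groups were held by 5 of the 14. Of 16 genes of the 2-cell embryo that the study used, 2 fell and 1 rose, near the shares of all genes, and its Zscan4 members, which are near-identical copies whose reads may be split, did not pass the test, as with Zscan4c at 41.7 and 37.7 and 48.4 and 46.6. Of 16 germline genes 3 rose and 4 fell, beside 8.53% higher and 10.8% lower of all genes tested. Tex19.1 rose from 572 and 525 to 2211 and 2262 (2.03 ± 0.067), and Dazl fell from 3237 and 3331 to 681 and 646 (-2.31 ± 0.11).

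Junction genes of epithelia rose while the main cadherin did not. Of 16 epithelial genes, 7 rose and 1 fell. The claudins Cldn3, Cldn4 and Cldn7, which seal tight junctions, rose from 169 and 161 to 982 and 938, from 1279 and 1322 to 5057 and 5063 and from 330.1 and 386 to 1639 and 1592. Cdh1 (E-cadherin) held 6847 and 6782 untreated and 5926 and 6067 after Dox (-0.18 ± 0.030), and Epcam rose from 1115 and 1066 to 2394 and 2345 (1.12 ± 0.048). Of 20 mesenchymal and actin genes 7 rose and 4 fell. Lgals1, a galectin, rose from 1535 and 1568 to 10324 and 10047 (6.57-fold), and Fn1 (fibronectin), 1 of the 6 genes that lost most counts, fell from 27753 and 27741 to 4419 and 4869 (5.98-fold, -2.58 ± 0.032), with Vim (vimentin) from 1182 and 1138 to 469 and 448. Among cell adhesion genes of the naive state, Pecam1 fell from 2069 and 2112 to 12.7 and 20.0 (128-fold, -6.95 ± 0.12) and Jam2 from 706 and 788 to 3.45 and 18.9 (-6.31 ± 0.39).

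The furthest fall among genes with a mean of at least 100 counts was that of A2m, the secreted protease inhibitor alpha-2-macroglobulin, from 2414 and 2253 to 6.91 and 21.1 (167-fold, -7.46 ± 0.27). Epha2, an ephrin receptor, fell from 859 and 782 to 16.1 and 28.9 (-5.18 ± 0.16), Lrrc2 from 265 and 259 to 3.45 and 7.77 (-5.39 ± 0.23), Fam81a from 1058 and 1057 to 31.1 and 28.9 (-5.10 ± 0.062) and Stmn2, a microtubule regulator of neurons, from 782 and 769.8 to 21.9 and 23.3 (-5.04 ± 0.077). Measured by counts, the genes that lost most beside Fn1 were Igfbp2 (18114 and 18229.8 to 1573 and 1621), Txnip (20693 and 20487 to 7681 and 7627), Eno1 (21956 and 21882 to 10772 and 10775), Ubr4 (12437 and 12209 to 3927 and 3998) and Tdgf1.

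Chromatin genes were called in both directions. Of 12 writers and erasers of DNA methylation, 5 fell and 1 rose, beside 10.8% lower and 8.53% higher of all genes tested. The dioxygenases Tet1 and Tet2, which oxidise methylcytosine, fell from 3579 and 3563 to 432 and 506 (-2.93 ± 0.052) and from 1832 and 1805 to 399.6 and 405 (-2.17 ± 0.040), and Tet3 rose from 241 and 249 to 561 and 646 (1.29 ± 0.099). Zfp57, which protects imprints, fell from 2265 and 2133 to 309 and 334 (-2.77 ± 0.048), and Dppa3 (Stella) from 850.1 and 823 to 161 and 175 (-2.31 ± 0.13). Of 17 Polycomb genes 2 fell and 1 rose, again near the shares of all genes, with Jarid2 from 6631 and 6467 to 2531 and 2619.7 (-1.35 ± 0.034) and the catalytic subunit Ezh2 at -0.46 ± 0.056, not called. No other POU factor rose: 4 of 11 fell, all from under 100 normalized counts, and Pou2f1 (Oct1), the most abundant, held 1038 and 1087 and 524 and 571 (-0.96 ± 0.052, and -1.02, past the threshold, without Dox replicate 2 or with median centring). Of the 11 POU genes, 4 held at most 3 reads in each library of 1 group, and 2 in each library of both. Of 15 Sox genes other than Sox2, 4 fell and 1 rose, beside the same 10.8% lower and 8.53% higher of all genes. The gene that rose was Sox4, from 268 and 290.1 to 731 and 689 (1.35 ± 0.066). Of the 15 Sox genes, 4 held at most 3 reads in each library of 1 group, and 1 in each library of both.

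Of 20 cell-cycle genes 2 fell and 1 rose, shares near those of all genes tested (10.8% lower and 8.53% higher), and Mki67, the proliferation marker, held 4969 and 4954 and 4918 and 4882 (-0.018 ± 0.029). Cyclin genes divided: Ccnd1 fell, as above, and Ccne2 (cyclin E2) rose from 188 and 191 to 776 and 753 (4.03-fold, 2.00 ± 0.10). Among 9 inhibitors the imprinted Cdkn1c was the only one called, and Cdkn1a (p21) was at 0.23 ± 0.064. Of 17 p53 targets 5 fell and none rose, with Mdm2 at -0.44 ± 0.041, not called, and of 19 ATF4 targets 3 fell and none rose.

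In metabolism, 5 of 20 glycolysis genes fell and none rose, beside 10.8% lower and 8.53% higher of all genes tested. Pfkp, the platelet form of phosphofructokinase, fell from 6252 and 6266 to 833 and 793 (7.70-fold, -2.94 ± 0.032), and Hk2 (hexokinase 2) from 7419 and 7109.9 to 2489.7 and 2577, while the glucose transporter Slc2a1 held 13397 and 13309.9 and 26566 and 26486, a log2 fold change of 0.99 ± 0.030 just short of the threshold. Of 23 sterol and fatty acid synthesis genes 4 fell and none rose, among them Srebf2, the pathway's regulator (-1.41 ± 0.039). Of 20 lysosomal genes 2 rose, near the share of all genes called higher, and none fell. Psap (prosaposin) rose from 17059.6 and 16762 to 36531 and 36188 (1.10 ± 0.023). Of 13 mitochondrially encoded subunits 5 were called higher. mt-Cytb rose from 12094 and 10362 to 47725 and 47359 and mt-Nd2 from 14476 and 14109 to 29653 and 29209, whereas mt-Co1, the most abundant, held 105459 and 100825 and 103718 and 105509 (0.021 ± 0.031). The untreated replicates themselves differed in some of these genes, with 19738 and 11821 for mt-Nd5 and 711 and 1956 for mt-Nd6, and the log2 fold change of mt-Nd6 was -0.66 with both, -1.39 (adjusted p = 0.0353, called) without untreated replicate 1 and 0.066 without untreated replicate 2. The rise of mt-Nd2 was 0.98, under the threshold, when libraries were centred on their median gene.

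Markers of cells that the culture could also hold were summed. Trophectoderm markers (Cdx2, Eomes, Gata3, Elf5, Krt7 and Hand1) went from 1049 and 1081 to 4391 and 4255, with 3 of 6 called higher, and primitive endoderm markers from 692 and 652 to 645 and 639. The 11 fibroblast genes tested summed to 894 and 847 untreated and to 481 and 506 after Dox, with 3 called higher and 3 lower. Among 8 defining fibroblast markers in the table, the sum was 132 and 130 untreated and 174 and 185 after Dox, Col1a2 and Postn rose (6.21 and 9.88 to 62.2 and 47.7 and 2.66 and 3.59 to 42.6 and 50.0), Thy1 fell, and 4 of the 8, Col3a1, Prrx1 and Twist2 among them, held at most 3 reads in each of the 4 libraries. The 9 macrophage genes tested summed to 541 and 561 untreated and to 170 and 183 after Dox, of which Laptm5, a lysosomal protein and the member called lower, made up most of the untreated sum, and 2 were called higher. Of 4 defining macrophage markers 3 (Ptprc, Adgre1 and Tyrobp) held at most 3 reads in each library, and the sum of 2.66 and 16.2 untreated and 71.4 and 68.8 after Dox was nearly all Csf1r (0.887 and 14.4 to 69.1 and 64.4). The 6 endothelial genes tested summed to 613 and 617 untreated and to 385 and 423 after Dox, with 1 called higher and 3 lower, and 3 of them taken as defining markers summed to 242 and 246 untreated and to 175 and 183 after Dox. The part of such cells in the results above was not tested beyond these values.

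The Sox2 and Nanog lines received Dox as well, so the effect in the Oct4 line can be set against theirs by the difference between Dox effects, in the same fit. The difference between the Oct4 and the Sox2 line was called in 510 genes with a higher effect in the Oct4 line (2.12%) and in 1125 with a lower one (4.69%). Against the Nanog line it was called in 1482 genes higher (6.17%) and 2063 lower (8.59%). Each line has its own untreated libraries, so no controls are shared.

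Among naive factors, differences from both other lines were called. Against Nanog, 15 of 20 naive factors had a lower Dox effect in the Oct4 line and none a higher one. Against Sox2, 3 were lower and 6 higher by limma, and 3 lower and 4 higher by edgeR and by DESeq2. Of the 6, 1 is Sox2 itself, the gene removed in the other line. Another is Nr0b1, with 1.15 and 0 normalized counts after Dox in the Oct4 line and 0 and 0 in the Sox2 line. The falls of Nr0b1 in the 2 lines are therefore bounds and cannot be ranked. Esrrb had a log2 Dox effect of -6.36 in the Oct4 line, -3.17 in the Sox2 line and -0.91 in the Nanog line, so that the effect with loss of Oct4 was lower by 3.19 ± 0.071 and by 5.45 ± 0.071. Tbx3 (-3.20, -1.07 and 0.84 in the 3 lines) and Klf2 (-1.80, -0.29 and -0.14) also differed from both. Nanog fell in the Oct4 and Sox2 lines (-3.41 and -3.48), with a difference of 0.068 ± 0.060 that was not called. In the Nanog line the targeted gene itself held 9119 and 8847 normalized counts untreated and 3166 and 3112 after Dox (-1.52). Its RNA thus fell further in the Oct4 line than in the line made to remove it (difference -1.89 ± 0.060). Reads of the transgene and of the remains of the endogenous locus were not told apart. Protein was not measured here, and the study reports that Nanog protein was lost after Dox in the Nanog line. Pou5f1 fell in the Sox2 line too, with a Dox effect of -1.39, and was lower in the Nanog line with an effect short of the threshold (-0.44, limma adjusted p = 4.42e-06).

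Against the Nanog line, 13 of 16 trophectoderm factors had a higher Dox effect with loss of Oct4, while against the Sox2 line 5 were higher and 1, Tead4, lower. Of the 18 structural and secreted genes, 7 had a higher effect than in the Nanog line and 1 than in the Sox2 line, with none lower. Gata2 (4.03 in the Oct4 and 1.86 in the Sox2 line, a difference of 2.17 ± 0.21), Dlx3 (1.58 ± 0.17) and Tfap2a (1.50 ± 0.35) rose further in the Oct4 line than in the Sox2 line. The keratins had a difference between the 2 lines of -0.0041 ± 0.094 for Krt8 and 0.038 ± 0.082 for Krt18, neither called. Plac1 had Dox effects of 4.57, 4.39 and 4.74 in the Oct4, Sox2 and Nanog lines, Peg10 of 3.19, 3.76 and 2.73, and Igf2 of 3.16, 3.49 and 3.17, and for these 3 genes neither difference was called. In contrast Phlda2 had 5.23, 3.92 and -0.31, and both differences were called. Plac1 held at most 3 reads in each untreated library of the Nanog line, and 68.5 and 41.6 normalized counts after Dox. The size of the Plac1 effect in that line therefore depends on the pseudocount and cannot be ranked against the other lines.

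For interferon-stimulated genes, 12 of 15 had a higher Dox effect in the Oct4 line than in the Nanog line by limma, 7 by edgeR and 8 by DESeq2. Against the Sox2 line 5 of 15 were higher, and none was lower against either line. Ddx58 had Dox effects of 4.18, 1.09 and -0.072, a difference from the Sox2 line of 3.09 ± 0.22 (adjusted p = 3.12e-08). Bst2 differed from it by 1.67 ± 0.11. For Isg15 the effects were 7.52, 5.90 and 1.22, and its difference from the Nanog line, called by limma, was not called by edgeR or DESeq2 (adjusted p = 1.00 and 0.551). For Oasl2 they were 3.77, 3.10 and 3.22, so that Oasl2 rose in all 3 lines and its differences were not called. In the Nanog line Oasl2 went from 0 and 0 normalized counts to 8.78 and 7.87, so the size of that effect depends on the pseudocount. Of the Nodal genes, 7 of 17 had a lower effect in the Oct4 than in the Sox2 line and 2, Lefty1 and Lefty2, a higher one by limma, against 1 by edgeR and 1 by DESeq2. Both Lefty genes held at most 3 reads after Dox in each library of either line, so their falls in the 2 lines are bounds set by the untreated levels and cannot be ranked. Tdgf1 had -6.04, -2.38 and -0.68 in the 3 lines.

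**Figure D5:**
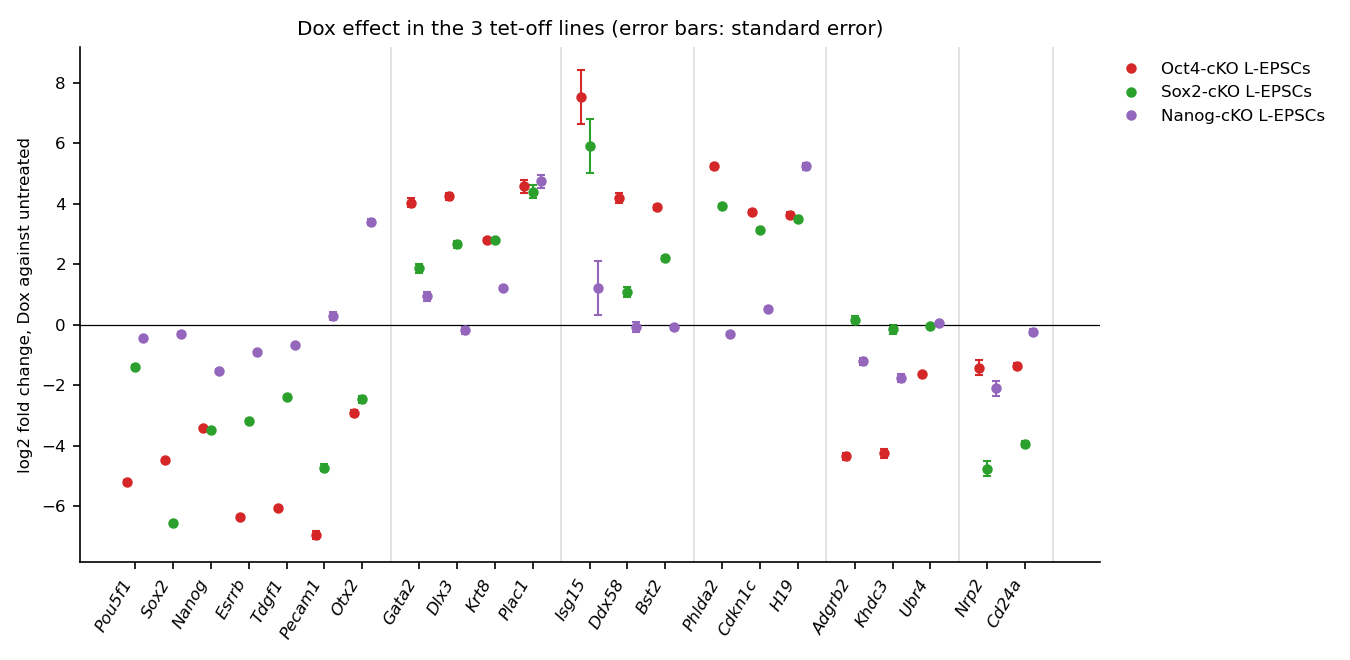
Log2 fold change, Dox over untreated (y axis), with its standard error as error bar, for genes of the text and of the differences between lines, in Oct4-cKO (red), Sox2-cKO (green) and Nanog-cKO (purple) L-EPSCs. The Oct4 line lies below both others at Esrrb, Tdgf1 and Adgrb2. The Oct4 and Sox2 lines lie together at Nanog and Krt8, and all 3 lie together at Plac1. The height of the Nanog line at Plac1 depends on the pseudocount.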

How the data were processed

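RNA-seq of mouse ES and EPS cells gave 24 libraries, of which the 18 of the Tet-off lines share 1 table and were fitted here. Per the labels and the study's methods, the authors trimmed reads (Trim Galore 0.6.4), aligned them with STAR 2.7.9a to mm9, counted them on NCBIM37 genes with HTSeq 0.11.2 and normalized with DESeq2 (4.1.1 in the submitters' processing notes). The strand setting is not given in the sources used here. The deposited values are counts divided by a size factor, a signal called normalized counts, and every value in all 18 columns was a whole number of reads (100% within 0.01). In 2 columns, both of the Sox2 line, 1 read was worth nearly 1.

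Genes holding 2 or more reads over the 18 libraries (24007 of 25476) entered limma 3.58.1 with a trend on log2(normalized count + 1), 1 coefficient for each of 9 groups, with Benjamini-Hochberg adjustment over all of them. The threshold for a call was 0.05 on the adjusted p together with 1 on the log2 fold change, in either direction. Differences between lines were interaction terms of that fit. A fold against a group with at most 3 reads in each library was computed against 3 reads per library and is a lower bound. Alternatives were edgeR 4.0.16 and DESeq2 1.42.0 on the recovered reads, median centring, TMM scaling, a minimum mean of 10, fits of the compared groups alone, a replicate block, a log2 threshold of 0.6, a pseudocount of 0.1 and leaving out each replicate, and the scripts were tested on simulated data. Depths per library are given with the results, at 10807631 to 14014196 reads. Counting error weighs most on genes with few reads and is not confined to them.

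Genes were named by rule: Pou5f1, Sox2 and Nanog, the 12 largest and 12 smallest log2 fold changes among called genes at a mean of 100 or more, the 6 largest changes in mean count in each direction, the 5 largest differences each way for each interaction term, and list members by size or role, of which a few are not reported here. The comparison and the lists were chosen with earlier results of these data known. List members under 2 reads or absent from the table (16 symbols) were not analysed here. Promoter windows came from RefSeq (GRCm38.p6) by symbol, for 14549 of the tested genes. The libraries of the wild-type J1 line were not used here.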

Additional observations from a re-analysis of the deposited data

Results flagged for a closer look

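The Dox effect in the Oct4 line differed from that in the Sox2 line in 1635 genes and from that in the Nanog line in 3545, each by an interaction term of limma with an adjusted p under 0.05 and a difference beyond 1 on the log2 scale. The values below are among the 5 largest differences in each direction among genes at 100 or more normalized counts on average, and no explanation of them was tested.

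Against the Sox2 line, genes with the most negative differences included Adgrb2 (-4.52), an adhesion receptor, A2m (-4.19), Khdc3 (-4.10), a maternal-effect gene, and Map1a (-4.01), a microtubule protein. Adgrb2 held 333 and 347 normalized counts untreated and 18.4 and 13.3 after Dox in the Oct4 line, where its log2 fold change was -4.35 ± 0.11, against 0.17 in the Sox2 line. Khdc3 went from 1183 and 1170.5 to 76.0 and 48.8 (-4.25 ± 0.14), against -0.15. The genes with the most positive difference were Nrp2 (3.34), a semaphorin receptor, the sensor Ddx58 (3.09), Pmel (2.60), Cd24a (2.56) and S100a13 (2.51). Nrp2, Pmel and Cd24a fell in both lines, less in the Oct4 line, as Nrp2 with -1.42 ± 0.24 against -4.76 and Cd24a with -1.37 ± 0.10 against -3.94. The fall of Pmel in the Oct4 line (-1.07) came under the threshold without replicate 2 of either group (-0.85 and -0.93).

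Against the Nanog line, the most negative differences were those of Pecam1 (-7.24), Sfrp2 (-6.77), a secreted Wnt modulator, Otx2 (-6.32), Fut9 (-5.55), which makes the SSEA-1 antigen, and Esrrb (-5.45). Otx2 moved in opposite directions, with -2.92 ± 0.10 in the Oct4 line and 3.40 in the Nanog line. Sfrp2 and Fut9 held at most 1 read in each Dox-treated library of the Oct4 line, where they fell at least 29.5-fold and 23.8-fold against 3 reads, so the sizes of their differences depend on the pseudocount. The effect on Sfrp2 in the Nanog line (0.66) was not called. The most positive differences were those of Isg15 (6.30), Phlda2 (5.54), Rtp4 (5.46), Lgals9 (4.81), a galectin, and Myl4 (4.44), a myosin light chain. Those of Isg15 and Rtp4 were not called by edgeR (2.97, adjusted p = 1.00, and 4.42, adjusted p = 0.171) or with a pseudocount of 0.1, and that of Isg15 was not called by DESeq2 (3.90, adjusted p = 0.551). Both genes held few reads in the untreated libraries, with 0 and 5.39 and 0.887 and 8.98 normalized counts in the Oct4 line.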

How the results depend on the processing

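The 4637 genes called with Dox came to between 3622 (a mean of at least 10 normalized counts, with fewer genes tested) and 4659 (median centring) under the other tests, scalings, filters and samples, and to 6699 with a log2 threshold of 0.6. Leaving out each replicate gave 4184 to 4377 called genes, 1541 to 1781 for the difference from the Sox2 line and 3277 to 3461 for that from the Nanog line. These counts over all genes tested moved by over 1.5 times only with the threshold of 0.6, to 3097 against Sox2 and 5414 against Nanog. The replicate block gave 4615, 1555 and 3451, and the numbers do not pair the samples, since the correlation of replicate differences between groups lay between -0.028 and 0.040, so no blocked value stands in the report. The block changed no call of a named gene. Within the gene lists, 64 values for counts of members moved under the alternatives and 924 did not. Of the list medians, 67 values moved and 389 did not. The counts and medians of the lists therefore depend in part on the settings.

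The sign turned for 7 named genes, none of them called with all libraries. With median centring Stat2 was at -0.061 and mt-Co1 at -0.042. Leaving out single replicates gave ranges of -0.156 to 0.088 for Bmp4, -0.030 to 0.498 for Egr1, -0.403 to 0.251 for Pax6, -0.0083 to 0.0113 for Stat2, -2.04 to 0.079 for T, -0.012 to 0.0532 for mt-Co1 and -1.39 to 0.066 for mt-Nd6. Of the named genes' other values, 2034 kept their direction and side of the threshold, 17 came under it and 7 over it. Each of those changes stands beside the value it concerns, and the cause was not tested. The 239 called genes with at most 3 reads in every library of both groups rest on limma's log scale, and depth does not allow a fold for them.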

Other observations

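These genes were chosen after their values were seen. Among 327 X-linked genes at 100 or more normalized counts on average, 60 rose after Dox (18.3%) and 31 fell (9.48%), against 9.29% and 8.74% of all 9832 genes at that level. Xist, the non-coding RNA that silences an X chromosome, held 93.2 and 122 normalized counts in the untreated and 1234 and 1268 in the Dox-treated libraries (11.6-fold, log2 fold change 3.54 ± 0.44, limma adjusted p = 4.47e-06), and its log2 Dox effect was 4.61 in the Sox2 line and 3.03 in the Nanog line. Its antisense partner Tsix held 17.7 and 27.8 untreated and 12.7 and 13.3 after Dox (-0.73 ± 0.27, and -1.04, past the threshold, without untreated replicate 1), and reads of the overlapping pair cannot be told apart where strand was not used in counting. Dppa1, another gene with a low untreated level, went from 61.2 and 80.8 to 1542 and 1613 (22.2-fold, 4.47 ± 0.41).

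Beside the interferon-stimulated list, the class I antigen H2-D1 rose from 419.7 and 425 to 3279 and 3286 (7.77-fold, 2.96 ± 0.12), and Irf9, a DNA-binding partner of Stat2, rose from 113 and 103 to 388 and 364 (1.79 ± 0.11). Reads of class I genes may be split among near-identical copies, so the level of H2-D1 is uncertain.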
